A study of Mus musculus with 4 samples.

Results

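The miR-16 seed family and the X-linked cluster of miR-322 and miR-351 were examined in 4 mouse hepatocarcinoma cell lines that differ in lymphatic metastasis ability. The 4 miRNAs described are mmu-miR-16, mmu-miR-195, mmu-miR-322 and mmu-miR-351 (written without the species prefix from here on), taken by their names on the array, out of 414 mouse miRNAs that it carried. Each line was measured once, on an LNA capture array, whose locked nucleic acid probes bind mature miRNAs labelled with the dye Hy3. H22 grows in suspension and Hepa1-6 is adherent, and per the labels neither spreads to lymph nodes. Hca-P and Hca-F, both derived from H22 and growing in suspension, spread to lymph nodes, Hca-F more than Hca-P. None of the lines was treated. Hca-P and Hca-F cells had been kept about 7 days in the abdominal cavity of mice of strain 615 and recovered from ascites before culture, whereas Hepa1-6 came from a cell bank. The labels give no such step for H22.

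miRNAs of the miR-15 and miR-16 family share their seed, the bases near the 5′ end that pair with target mRNAs, and are known for repressing cyclins, cyclin-dependent kinases and Bcl2, which slows entry into the cell cycle. miR-16 is made from 2 loci, each beside a miR-15 gene, and miR-195 is made beside miR-497. miR-322, the mouse counterpart of human miR-424, is made with miR-503 and miR-351 from a cluster on the X chromosome and is known for its rise in muscle cells that leave the cell cycle. miR-351 lies in that cluster but carries the seed of miR-125, a family known from blood cell development.

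The mature sequences below show which of the 4 share a seed and how close miR-16 and miR-195 are, which bears on what a capture probe can tell apart. They are RefSeq entries on the GRCm38.p6 build, matched by name for 4 of 4 miRNAs, with the seed (bases 2 to 8) in capitals. The array name miR-195 was matched to miR-195a-5p. miR-15a and miR-125a-5p are added as relatives of each seed.
miR-16: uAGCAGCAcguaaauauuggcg
miR-195: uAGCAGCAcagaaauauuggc
miR-322: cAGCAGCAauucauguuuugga
miR-15a: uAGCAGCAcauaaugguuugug
miR-351: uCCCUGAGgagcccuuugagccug
miR-125a-5p: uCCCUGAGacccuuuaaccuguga

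The seed AGCAGCA was shared by miR-16, miR-195 and miR-322, and 10 of 1679 mature mouse miRNAs in RefSeq carry it. The seed CCCUGAG of miR-351 is carried by 5 of them. Counted from the 5′ end, miR-195 matched miR-16 at 19 of 21 bases and differed by the substitutions G10A and U11G, while miR-322 matched miR-16 at 12 of 22 bases. The probe sequences were not used here, and how far the miR-16 and miR-195 probes bind each other's target was not tested.

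The 2 copies of miR-16 lie at chr14:61631936-61631957 on the minus strand, within the span of the long noncoding RNA gene Dleu2, and at chr3:69009918-69009939 on the plus strand, within the span of Smc4, which encodes a condensin subunit. The array cannot tell their products apart. miR-195 lies at chr11:70235062-70235082 on the plus strand, 310 bases from miR-497 between the mature sequences, in no other annotated gene. miR-322 (chrX:53054306-53054327) and miR-351 (chrX:53053315-53053338) lie on the minus strand, 967 bases apart, within the span of the long noncoding RNA gene C430049B03Rik. The tables used give gene spans only, so exon and intron were not assigned.

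Intensities are scanner units after subtraction of the local background. Per the labels, miRNAs at 50 units or more in all samples set the scale, and 50 units was taken here as the detection minimum. A level is the mean intensity of the 4 spots of a probe divided by the median of 65 reference probes on that array, so that 1 is a middling reference probe. On this scale the minimum lay at 0.124 for Hepa1-6, 0.126 for Hca-P, 0.136 for H22 and 0.154 for Hca-F. Errors are SDs over the 4 spots of 1 array. The spots of an array share 1 RNA sample, so differences between lines have no replicate check, and precision is limited by having 1 array for each. A lower level can mean fewer cells of a type or less RNA per cell, which cannot be told apart in bulk RNA. Over the array, 71 to 87 mouse miRNAs reached the minimum in a line and 103 in at least 1 line. Empty positions read at most 7.75 units and negative controls at most 8, while spike-control positions reached 27.2. Spots were not independent between arrays: for the relative deviation of a spot from its probe's average, Pearson's r was 0.628 for the arrays of H22 and Hepa1-6 (264 spots) and 0.674 for those of Hca-F and Hca-P (256 spots), against 0.113 to 0.191 for the other pairs. Those 2 pairs of arrays coincide with the lines without and with lymphatic metastasis, so array pair and metastasis class cannot be told apart. Of the hepatocyte miRNAs miR-122, miR-192, miR-194 and miR-148a, none reached the minimum in any line, miR-122 reading 12.2 to 33 units. Of 5 leukocyte miRNAs, miR-142-5p alone reached it, in Hca-P (59.2 units), and the rest did not share a highest line. miR-155 read 43.8 units in H22, 12.5 in Hca-P, 13.8 in Hca-F and 5.5 in Hepa1-6. miR-142-3p read highest in Hca-P (32 units) and miR-223 in Hca-F (22.8 units), all of these under the minimum. Their part in the results below was not tested.

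All 4 miRNAs were dim. Of their 16 intensities, 9 reached the minimum: 4 of 4 miRNAs in H22, 3 in Hepa1-6 and 1 each in Hca-P and Hca-F. miR-351 was the one measured in every line, miR-195 and miR-322 were measured in H22 and Hepa1-6, and miR-16 in H22 alone. The plot of single spots shows these 3 patterns.

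**Figure D1:**
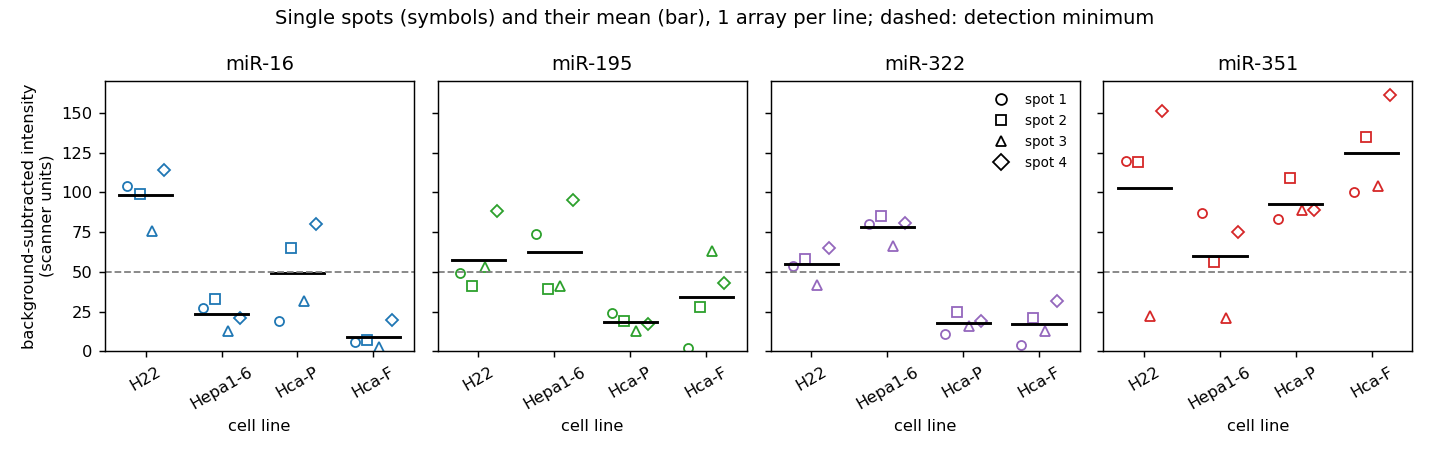
Background-subtracted intensity (scanner units, linear axis) of the 4 spots of each probe in each line; symbols are single spots, bars their mean, and the dashed line is the detection minimum of 50. miR-16 stands above the line in H22, miR-195 and miR-322 in H22 and Hepa1-6, and miR-351 in all lines, with the third spot at 22 in H22 and 21 in Hepa1-6.

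miR-16 is the most studied brake on the cell cycle among the 4. Its spots read 104, 99, 76 and 114 units in H22. They read 27, 33, 13 and 21 units in Hepa1-6, 19, 65, 32 and 80 in Hca-P, and 6, 7, 3 and 20 in Hca-F. Every spot of Hepa1-6 and Hca-F lay below every spot of H22, while the brightest Hca-P spot exceeded the dimmest of H22. After scaling, the spots of Hca-P (up to 0.202) and H22 (from 0.207) no longer overlapped. The levels were 0.268 ± 0.0438 in H22, 0.124 ± 0.0715 in Hca-P, 0.0582 ± 0.0212 in Hepa1-6 and 0.0277 ± 0.0232 in Hca-F, in falling order. Hca-P, Hepa1-6 and Hca-F overlapped in their spot levels, so no order among these 3 lines was resolved.

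With values under the minimum set to it, miR-16 was at least 2.16-fold higher in H22 than in Hepa1-6. It was at least 2.12-fold higher in H22 than in Hca-P and at least 1.74-fold higher than in Hca-F, the smaller bound coming from the higher minimum of that array. Taken spot by spot, the level in H22 exceeded that of Hca-F by 0.240 ± 0.0291, of Hepa1-6 by 0.210 ± 0.0371 and of Hca-P by 0.144 ± 0.0616. H22 was the higher line at 4 of 4 spot positions in each of these comparisons. The arrays of H22 and Hepa1-6 shared their spot deviations, so their positions are not independent checks. In Hca-P the mean intensity of miR-16, 49 units, lay just under the minimum. The bound against Hca-P fell under 2-fold in 6 of 13 alternatives, with a log2 value of -0.41 after quantile normalization, and the bound against Hepa1-6 in 4 of 13, with 0.25 when the 75th percentile of mouse probes set the scale. H22 stayed the higher line in each of these alternatives. A bound is given only where the measured line is the higher, so it could not turn with H22 alone measured.

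miR-195, described in human liver cancer as restraining the step from G1 to S phase, was measured in H22 and Hepa1-6. miR-16, close to it in sequence, was measured in H22 alone. Whether their folds differ could not be tested with 1 array per line. In Hepa1-6 miR-195 was near the minimum, at 62.2 units with 2 of 4 spots at 50 or more. Its spots read 49, 41, 53 and 88 units in H22 and 74, 39, 41 and 95 in Hepa1-6. In Hca-P they read 24, 19, 13 and 17 units, and in Hca-F 2, 28, 63 and 43. The first 2 lines covered the same range, Hca-P lay below both at every spot, and Hca-F overlapped all of them. The levels were 0.157 ± 0.0566 in H22, 0.154 ± 0.0671 in Hepa1-6, 0.105 ± 0.0792 in Hca-F and 0.0461 ± 0.0115 in Hca-P.

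H22 and Hepa1-6 differed in miR-195 by 1.02-fold, a log2 fold of 0.03 that ranged from -0.83 to 0.19 over the alternatives and changed sign in 8 of 12. miR-195 was at least 1.25-fold higher in H22 and at least 1.22-fold higher in Hepa1-6 than in Hca-P. These bounds are small because its intensity in the 2 brighter lines was 57.8 and 62.2 units, close to the minimum. The bounds against Hca-F were 1.02-fold for H22 and 1.0-fold for Hepa1-6, and there the spot ranges overlapped.

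miR-322, the seed relative made on the X chromosome, was measured in the lines without lymphatic metastasis and under the minimum in those with it. Its spots read 54, 58, 42 and 65 units in H22 and 80, 85, 66 and 81 in Hepa1-6. They read 11, 25, 16 and 19 units in Hca-P and 4, 21, 13 and 32 in Hca-F. Every spot of H22 and Hepa1-6 lay above every spot of both lines with lymphatic metastasis, before scaling (42 units at the lowest against 32 at the highest) and as levels (0.114 against 0.0986). Of 103 miRNAs measured in at least 1 line, 18 (17.5%) had all spots of one class apart from all spots of the other, 8 (7.77%) of them lower and 10 (9.71%) higher in the lines with metastasis. miR-322 was the 1 of the 4 among them, which does not set the members apart from all miRNAs. Its spots in Hca-P and Hca-F were all under the minimum, as was the H22 spot of 42 units. The classes are also the pairs of arrays whose spot deviations were shared, so class and array pair cannot be told apart.

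The levels of miR-322 were 0.193 ± 0.0205 in Hepa1-6, 0.149 ± 0.0263 in H22, 0.0539 ± 0.0367 in Hca-F and 0.0448 ± 0.0148 in Hca-P. It was at least 1.53-fold higher in Hepa1-6 than in Hca-P and at least 1.25-fold higher than in Hca-F. H22 was at least 1.18-fold above Hca-P. Against Hca-F no bound could be given for H22, since the minimum of the Hca-F array exceeded the level of H22. Hca-P and Hca-F were both under the minimum and overlapped. Between H22 and Hepa1-6, where both were measured, miR-322 was 1.29-fold lower in H22, less than 2 combined spot SDs, though lower at 4 of 4 spot positions, with a difference in level (H22 minus Hepa1-6) of -0.0440 ± 0.0137. Their spot ranges overlapped. The arrays of H22 and Hepa1-6 shared their spot deviations (Pearson's r = 0.628), so the 4 positions are not independent checks. None of the folds of miR-322 reached 2-fold as reported, and each kept its direction in the 10 to 13 alternatives that gave a fold. For the bounds this was fixed, since a bound is given only where the measured line is the higher. The remaining alternatives gave no fold. The scale moved their size: with the 75th percentile of miRNAs detected everywhere, the log2 fold was -1.48 for Hca-P over Hepa1-6, -1.19 for Hca-F over Hepa1-6 and -1.08 for H22 over Hepa1-6. The last was -1.23 with the 75th percentile of mouse probes, and a minimum of 30 gave -1.35 and -1.06 for Hca-P and Hca-F over Hepa1-6.

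miR-351, the cluster neighbour of miR-322 with a different seed, was measured in all lines and had its highest level in Hca-F. Its spots read 120, 119, 22 and 151 units in H22 and 87, 56, 21 and 75 in Hepa1-6. They read 83, 109, 89 and 89 units in Hca-P and 100, 135, 104 and 161 in Hca-F. The third spot was low in H22 and Hepa1-6 and not in the other pair of arrays. The levels were 0.385 ± 0.0883 in Hca-F, 0.281 ± 0.153 in H22, 0.233 ± 0.0287 in Hca-P and 0.148 ± 0.0714 in Hepa1-6.

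miR-351 was 2.60-fold higher in Hca-F than in Hepa1-6, higher at 4 of 4 spot positions by 0.237 ± 0.0980, and the spot ranges did not overlap. This fold was under 2-fold in 4 of 14 alternatives, with the lowest log2 value of 0.52 when the scale came from the 75th percentile over miRNAs detected everywhere, against 1.38 as reported. Between Hca-F and Hca-P it was 1.65-fold, with no overlap of spots, and higher in Hca-F at 4 of 4 spot positions by 0.152 ± 0.0825. Between H22 and Hepa1-6 it was 1.90-fold, with overlap, and higher in H22 at 4 of 4 positions by 0.133 ± 0.0957. These are the pairs of arrays whose spot deviations were shared. The log2 fold of H22 over Hepa1-6 was 0.92 as reported and 0.03 after quantile normalization. Hca-F over H22 was 1.37-fold, Hca-P over Hepa1-6 1.58-fold and H22 over Hca-P 1.20-fold. All 5 of these differences, unlike that of Hca-F and Hepa1-6, were within 2 combined spot SDs. H22 over Hca-P changed sign in 3 of 14 alternatives and Hca-P over Hepa1-6 in 1 of 13, where its log2 value was -0.20, so the order of these 3 lines is not resolved. Without the third spot, the levels were 0.407 ± 0.0943 in Hca-F, 0.354 ± 0.0496 in H22, 0.236 ± 0.0344 in Hca-P and 0.180 ± 0.0387 in Hepa1-6 (n = 3 spots). The order of the lines was then the same, and H22 moved closer to Hca-F.

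As reported, Hepa1-6 had the highest level of miR-322 and the lowest of miR-351, though neither was beyond 2 combined spot SDs of the next line and the spot ranges overlapped there. For Hca-F over Hepa1-6, the log2 fold was 1.38 for miR-351, while miR-322 fell by at least 0.33 on the log2 scale. Whether the folds of the neighbours differ could not be tested with 1 array per line. miR-351 spanned 2.60-fold from lowest to highest line, rank 22 from the most even among 54 miRNAs measured in all lines, whose median span was 3.0-fold. Its span was 1.56-fold with a minimum of 100, 1.65-fold with the 75th percentile of miRNAs detected everywhere and 1.73-fold after quantile normalization.

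Over all 6 pairs of lines, 19 of 24 combinations of miRNA and pair had a value at the minimum or above in at least 1 of the lines, and 3 of the 19 were 2-fold or more apart (for 1 of the 19, miR-322 in Hca-F against H22, no fold could be given). Over all mouse miRNAs 41.7% of 540 such combinations were. The 3 were miR-16 in H22 against Hepa1-6 (1 of 4 members, against 37.0% of 92 miRNAs), miR-16 in Hca-P against H22 (1 of 4, against 50.0% of 98) and miR-351 in Hca-F against Hepa1-6 (1 of 3, against 37.0% of 81). No member was 2-fold apart in Hca-F against Hca-P (1 compared, against 36.5% of 85), in Hca-F against H22 (4 compared, against 32.6% of 95) or in Hca-P against Hepa1-6 (3 compared, against 56.2% of 89). By spots that do not overlap, the members apart were 3 of 4 in Hca-P against H22 (68.4% of all miRNAs), 2 of 4 in Hca-F against H22 (52.6%) and 1 of 4 in H22 against Hepa1-6 (65.2%). They were 2 of 3 in Hca-P against Hepa1-6 (67.4%), 2 of 3 in Hca-F against Hepa1-6 (55.6%) and 1 of 1 in Hca-F against Hca-P (48.2%). A miRNA that reads little above the minimum can give no large fold against a line below it, and 2 of the 3 folds are such bounds. The pairs share arrays and are not independent. The shift of all miRNAs together depended on the scaling: the median log2 fold of H22 over Hepa1-6 was 0.31 as reported and -0.64 to 0.31 over the scalings, that of Hca-P over H22 -0.62 and -0.80 to -0.16, and that of Hca-F over Hepa1-6 0.40 and -0.53 to 0.40.

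**Figure D2:**
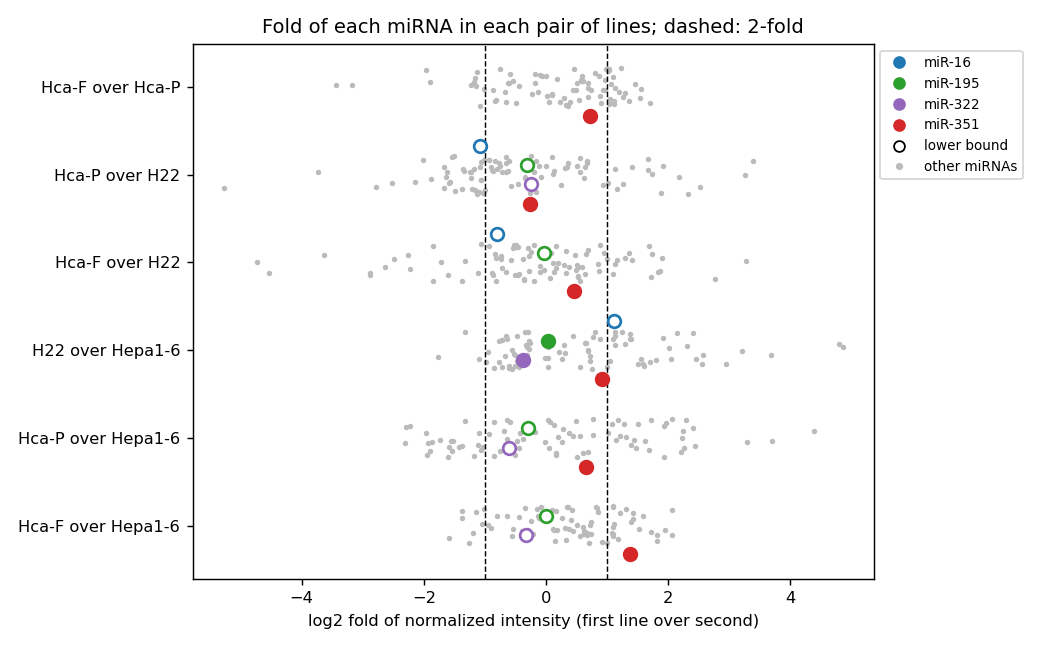
Log2 fold of normalized intensity in each pair of lines (first line over second); coloured points are the 4 miRNAs, filled where both lines were measured and open where the fold is a lower bound, and grey points are the other miRNAs. Of the coloured points, miR-16 passes 2-fold (dashed) in H22 over Hepa1-6 and Hca-P over H22, and miR-351 in Hca-F over Hepa1-6; points are missing where neither line reached the minimum or no bound could be given.

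**Figure D3:**
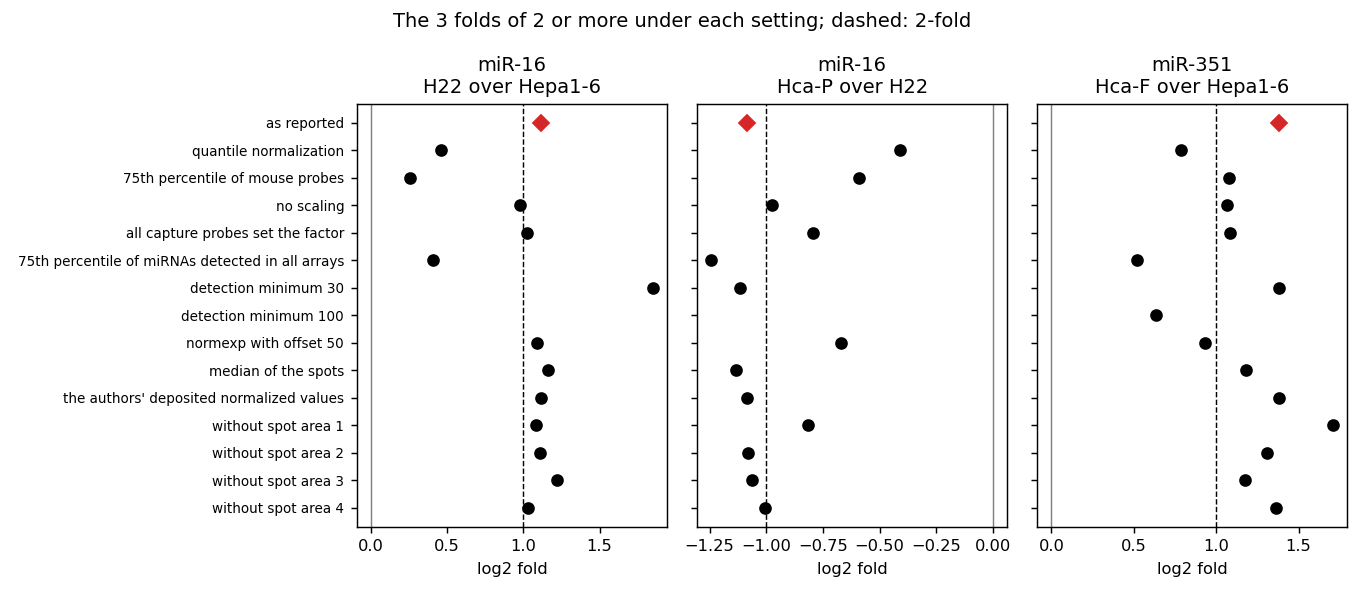
Log2 fold of the 3 combinations that were 2-fold or more apart, as reported (red diamond) and under each alternative (black points), with the dashed line at 2-fold and the grey line at 0. No point crosses 0, which a bound of miR-16 cannot do with H22 alone measured. Of the points, 6 of 13, 4 of 13 and 4 of 14 fall short of 2-fold for miR-16 in Hca-P over H22, miR-16 in H22 over Hepa1-6 and miR-351.

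The series is named for lymphatic metastasis, and the fit across all 103 miRNAs set Hca-P and Hca-F against H22 and Hepa1-6, each line being 1 of 2 samples of its class. In limma with Benjamini-Hochberg adjustment, miR-351 had a log2 difference of 0.56 ± 0.91 (SE), with an adjusted p of 0.901. miR-16 had -0.38 ± 0.42 (adjusted p = 0.839), miR-322 -0.28 ± 0.39 (adjusted p = 0.859) and miR-195 -0.16 ± 0.35 (adjusted p = 0.901). The level of miR-351 lay above both lines without metastasis in Hca-F and not in Hca-P, but the spots of Hca-F and H22 overlapped. None of the 4 passed the threshold, where 2 of 103 (1.94%) did, and the lowest unadjusted limma p among the 4 was 0.362. For miR-16, miR-195 and miR-322 both lines with metastasis entered at the minimum, so these differences rest on the minimum. Those of miR-195 and miR-322, measured in both lines without metastasis, are lower bounds on the drop at this scaling. That of miR-16 is no bound, since Hepa1-6 also entered at the minimum. H22 was the one line in which miR-16 was measured, so without it the fit holds no measured value of miR-16. Since H22 gave rise to both metastatic lines, 3 of the 4 samples share descent. The SEs and p-values rest on the spread between arrays pooled over miRNAs of like intensity, not on the spread of each member itself. miRNAs of like intensity to miR-16, miR-195 and miR-322 include others set to the minimum, so these SEs also rest in part on it. For miR-351 the SE was 0.91 with this trend over intensity and 0.64 without it. Without the trend it was 0.63 for miR-16, 0.58 for miR-195 and 0.59 for miR-322, each larger than with it.

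Relatives of the 4 miRNAs were read from the same arrays. None of the other seed members, miR-15a, miR-15b and miR-497, reached the minimum in any line. miR-15a, made beside miR-16 within Dleu2, came closest, at 44.2 ± 33.4 units in H22. It read 28.5 ± 26.2 units in Hepa1-6, 23.5 ± 25.3 in Hca-F and 28.2 ± 17.2 in Hca-P, and its spot ranges overlapped between all lines. miR-15b, made beside the other miR-16 copy, read 13.8 to 23 units, and miR-497, the neighbour of miR-195, 1.25 to 7.75 units, which is within the range of the negative controls. miR-322*, the partner strand of miR-322, read 0.750 to 3.75 units and miR-15b* 2.25 to 12.5. The other cluster miRNAs on the array, miR-542-3p, miR-450a-5p, miR-450b-5p and miR-450b-3p, read 0.750 to 15.2 units, 0 of 4 at the minimum in each line.

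**Figure D4:**
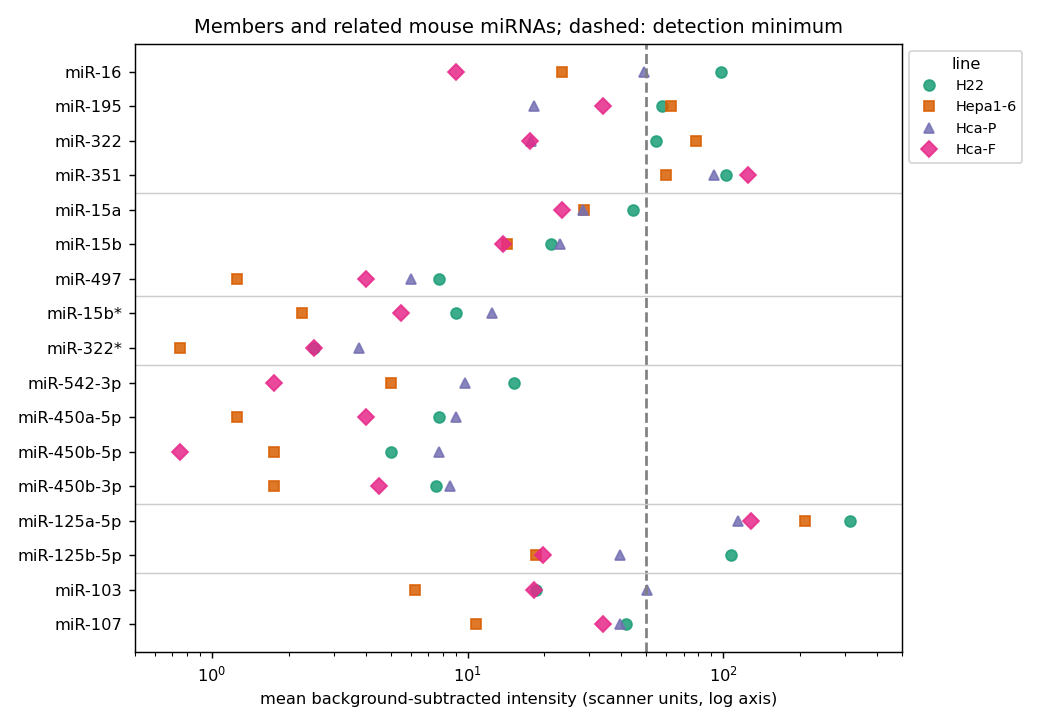
Mean background-subtracted intensity (scanner units, log axis) of the 4 miRNAs and their relatives in each line, grouped by list, with the detection minimum dashed. Lines can be compared within a row, not rows with each other, since probes differ in brightness; among the relatives, miR-125a-5p passes 50 in all lines, miR-125b-5p in H22 and miR-103 in Hca-P.

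The seed of miR-351 was also present in miR-125a-5p and miR-125b-5p, and both had H22 as their highest line. The highest line of miR-351 was Hca-F, but its spots there overlapped those of H22. miR-125a-5p had levels of 0.857 ± 0.203 in H22, 0.519 ± 0.111 in Hepa1-6, 0.397 ± 0.0930 in Hca-F and 0.288 ± 0.0473 in Hca-P. H22 was its highest line, 2.97-fold above Hca-P and 2.16-fold above Hca-F, where miR-351 was 1.20-fold higher and 1.37-fold lower in H22. miR-125b-5p was measured in H22 alone (0.293 ± 0.0609) and was at least 2.37-fold higher there than in Hepa1-6, at least 2.32-fold higher than in Hca-P and at least 1.90-fold higher than in Hca-F. miR-103 and miR-107, whose seed GCAGCAU holds 6 bases of the miR-16 seed shifted by 1, were under the minimum except for miR-103 in Hca-P (50.2 ± 41.5 units), where 2 of 4 spots read above it.

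The miRNAs most alike across the 4 lines were taken by the distance between centred log2 levels. For miR-351 these were miR-494 (distance 0.496) and miR-709 (0.502) among 53 miRNAs measured in all lines, with a median distance of 1.34. For miR-16 they were miR-27b (0.0553) and miR-125b-5p (0.112), both measured in H22 alone, so that the minimum stands in for 3 of 4 values. For miR-322 they were miR-31 (0.102) and miR-877 (0.104), and for miR-195 miR-877 (0.243) and miR-322 (0.310). The distances rest on 4 arrays, and those of miR-16, miR-195 and miR-322 rest in part on the minimum.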

How the data were processed

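Per the labels, the arrays were read on a GenePix 4000B scanner and extracted in GenePix Pro, replicate spots were averaged, and each array was divided by its median over miRNAs at 50 or more in all samples. The deposited values are linear intensities: foreground and background-subtracted intensities of spots, and normalized intensities of probes. Averaging the 4 corrected spots of a probe returned its deposited intensity, and dividing it by the median over 65 mouse and miRPlus probes gave the deposited normalized intensity. Where 2 probes shared a name, the brighter was kept, which left 414 miRNAs from 417 probes. Values under 50 were set to 50 before scaling and log2, so that folds against them are lower bounds. Pairs of lines were compared over miRNAs that reached 50 in either, counted at 2-fold, with no test. Lines with and without lymphatic metastasis were compared with limma 3.58.1 in R 4.3.3 (lmFit, eBayes with an intensity trend, threshold 0.05). The procedure was also run on simulated levels. These had independent lines and no minimum, so they do not show how it performs on these arrays. The value table of the series matched the deposited normalized intensities and added no data.

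The 4 miRNAs, the lists of relatives and markers, and the tests were chosen with earlier results of these data known. The miRNAs named were the 4, the relatives listed by seed, strand or cluster, and the 2 nearest in pattern to each. miR-424, miR-16*, miR-15a*, miR-503, miR-503*, miR-542-5p and miR-450a-3p were looked for by name, as were the markers miR-885-5p and miR-199a-3p. No mouse probe carried exactly these names, so they were not analysed. The other marker lists (erythroid, endothelial and mesenchymal) had 1 miRNA at the minimum, miR-214, in H22 (70.5 units), Hepa1-6 (97.5) and Hca-F (87.5). Alternatives covered 5 scalings, minimums of 30 and 100, normexp with an offset of 50, the median of spots, the authors' normalized values, folds of 1.5 and 3, each line left out, no intensity trend and, added after the data were seen, each of the 4 spot positions left out. Which miRNA database release named the probes was not stated in the labels.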

Additional observations from a re-analysis of the deposited data

How the results depend on the processing

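The count of 3 combinations of miRNA and pair of lines at 2-fold or more was 0 after quantile normalization, 1 without scaling, 5 with the 75th percentile of miRNAs detected in all arrays, 8 with a minimum of 30 and 0 with a minimum of 100, where 5 could be compared. It was 8 when counted at 1.5-fold and 0 at 3-fold. The 2 limma calls over all miRNAs became 0 after quantile normalization, with the 75th percentile of mouse probes, without scaling, with all capture probes setting the factor, with a minimum of 100, with normexp, without the intensity trend, and without spot position 3 or 4, and 1 with the 75th percentile of detected miRNAs or the median of spots. In these settings with 0 calls, 6 to 13 of 82 to 105 miRNAs had an unadjusted limma p under 0.05, where 6 of 103 did as reported. Some miRNAs pass such a threshold without any difference between the classes. With each line left out in turn limma called 0 to 2. The limma log2 difference of miR-16 ranged from -0.94 to 0.17 when a line was left out, but the 0.17, without H22, is the difference between the minimums of the 3 other arrays and holds no measurement of miR-16. That of miR-195 turned to 0.083 without spot position 4. H22 then fell under the minimum at 47.7 units, so Hepa1-6 alone was measured and the other lines entered at the minimum. The span over the lines moved for miR-16 from 2.16-fold to 1.37 (quantile), 1.51 (75th percentile of mouse probes) and 3.60 (minimum 30). For miR-195 it moved from 1.25-fold to 1.78 (75th percentile of mouse probes), 2.22 (75th percentile of detected miRNAs) and 2.08 (minimum 30). For miR-322 it moved from 1.53-fold to 1.96 (quantile), 2.35 (75th percentile of mouse probes), 2.78 (75th percentile of detected miRNAs), 2.55 (minimum 30) and 1.84 (normexp). For miR-351 it moved from 2.60-fold to 1.56 (minimum 100), 1.65 (75th percentile of detected miRNAs) and 1.73 (quantile), and was 3.27 without spot position 1. These spans of miR-16, miR-195 and miR-322 are bounds set by the minimum, and with a minimum of 100 they have no value. The causes of the other moves were not tested. Over all alternatives, the 3 folds of 2 or more kept their direction in 40 of 40 values and stayed at 2-fold or more in 26. The 2 folds of miR-16 among them are bounds as reported. A bound is given only where the measured line is the higher, so its direction could not turn with H22 alone measured. Signal over background limits 7 of the 16 levels, which lay under the minimum. No paired analysis was possible because each line has 1 array and the labels give no replicate numbers.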
